A study of Mus musculus with 4 samples.

Results

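Collagens and the enzymes that modify them were described in 4 mouse RNA samples, each measured on 1 Illumina bead array. The genes were taken by symbol: every numbered collagen chain, the lysyl oxidases Lox and Loxl1 to Loxl4, Crtap, Bmp1 and Pcolce. The prolyl and lysyl hydroxylase genes taken were P4ha1 to P4ha3, P3h1, P3h2 and Plod1 to Plod3. P3h3 was outside the rule and was read with the other genes that serve collagens. The rule found 52 genes with 73 probes among 15967 named genes and 24613 probes on the array, namely 37 collagen chains and 15 enzyme or enzyme partner genes. T23 and T1525 are prostate tumor cell lines, 1 array each, derived from C57Bl/6 TRAMP mice aged 30 weeks. TRAMP mice carry a transgene in which the probasin promoter, active in prostate epithelium, drives the SV40 T antigens. The 2 normal arrays held prostate of wild-type C57Bl/6 mice aged 18 weeks. Each line is a single line on a single array, and tumor origin, culture and age all differ between the lines and the tissue and cannot be told apart. Whether the pair of normal arrays represents different animals is not stated in the labels. The p-values therefore rest on the spread between single arrays, and that spread may be technical.

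Collagen chains are made as procollagens that fold as triple helices in the endoplasmic reticulum. There, prolyl hydroxylases stabilize the helix and lysyl hydroxylases prepare the sites for cross-links. Outside the cell, Bmp1 cuts the carboxyl propeptide of fibrillar procollagens and Pcolce enhances that cut, after which lysyl oxidases oxidize lysines so that the fibrils can be cross-linked. Fibrillar chains form the interstitial fibers of the stroma, type IV chains form the sheet of the basement membrane beneath epithelium and around vessels and muscle, and type VI chains form beaded filaments. In prostate tissue, much of the fibrillar collagen is made by stromal fibroblasts and smooth muscle cells.

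Promoter windows are shown for 7 member genes that stood at or below background in T1525 and far above it in T23. Col4a5 also met this description, and its window is not shown. RefSeq (GRCm38.p6) gave a window of 300 bases, 250 before the start and 50 after it, for 38 of the 52 genes. Lox, Loxl1 and Col1a1 were among the genes without a window. Capitals mark matches on either strand to 4 short motifs, spelled CCAAT for the CCAAT box, GGGCGG for the GC box, TATAAA for the TATA box and TGANTCA for the AP-1 motif. Within each printed window, no match overlapped another. Each window is written 5′ to 3′ on the strand of its gene.
Col1a2, chr6:4505368-4505667, plus strand: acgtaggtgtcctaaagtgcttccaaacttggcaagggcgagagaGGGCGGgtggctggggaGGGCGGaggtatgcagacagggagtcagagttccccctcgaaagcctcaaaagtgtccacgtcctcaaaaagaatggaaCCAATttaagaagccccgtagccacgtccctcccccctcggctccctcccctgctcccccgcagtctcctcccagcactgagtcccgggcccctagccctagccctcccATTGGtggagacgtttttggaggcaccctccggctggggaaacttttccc
Col3a1, chr1:45311288-45311587, plus strand: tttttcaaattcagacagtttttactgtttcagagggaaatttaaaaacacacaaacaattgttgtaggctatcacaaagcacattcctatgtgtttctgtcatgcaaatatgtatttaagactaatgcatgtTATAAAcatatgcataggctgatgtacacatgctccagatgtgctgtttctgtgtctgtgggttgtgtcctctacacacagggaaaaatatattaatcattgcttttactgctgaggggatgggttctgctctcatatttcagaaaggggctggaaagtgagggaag
Col5a1, chr2:27886175-27886474, plus strand: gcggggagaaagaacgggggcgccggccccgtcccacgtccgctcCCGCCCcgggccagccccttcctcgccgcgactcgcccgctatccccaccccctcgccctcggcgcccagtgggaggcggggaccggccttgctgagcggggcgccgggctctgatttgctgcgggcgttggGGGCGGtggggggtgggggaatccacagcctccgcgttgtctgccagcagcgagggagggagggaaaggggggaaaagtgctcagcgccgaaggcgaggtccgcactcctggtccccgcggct
Col6a1, chr10:76725995-76726294, minus strand: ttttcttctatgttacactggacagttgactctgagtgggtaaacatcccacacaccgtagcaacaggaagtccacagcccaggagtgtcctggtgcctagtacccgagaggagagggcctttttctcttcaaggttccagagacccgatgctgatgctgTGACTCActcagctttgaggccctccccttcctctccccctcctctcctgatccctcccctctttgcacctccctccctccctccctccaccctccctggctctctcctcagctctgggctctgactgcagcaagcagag
Pcolce, chr5:137611355-137611654, minus strand: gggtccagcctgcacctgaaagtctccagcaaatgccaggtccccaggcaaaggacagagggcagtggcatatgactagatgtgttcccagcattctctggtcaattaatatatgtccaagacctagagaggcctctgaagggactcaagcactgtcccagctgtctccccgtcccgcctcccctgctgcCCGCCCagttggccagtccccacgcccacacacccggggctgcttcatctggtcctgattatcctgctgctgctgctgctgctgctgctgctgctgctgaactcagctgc
Col4a1, chr8:11312777-11313076, minus strand: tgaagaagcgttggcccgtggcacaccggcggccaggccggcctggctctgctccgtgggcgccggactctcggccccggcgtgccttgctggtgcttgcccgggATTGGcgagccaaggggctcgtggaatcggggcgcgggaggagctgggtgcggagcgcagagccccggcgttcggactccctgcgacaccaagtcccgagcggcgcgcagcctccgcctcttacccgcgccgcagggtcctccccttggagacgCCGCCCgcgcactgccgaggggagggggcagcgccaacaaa
Col4a2, chr8:11312555-11312854, plus strand: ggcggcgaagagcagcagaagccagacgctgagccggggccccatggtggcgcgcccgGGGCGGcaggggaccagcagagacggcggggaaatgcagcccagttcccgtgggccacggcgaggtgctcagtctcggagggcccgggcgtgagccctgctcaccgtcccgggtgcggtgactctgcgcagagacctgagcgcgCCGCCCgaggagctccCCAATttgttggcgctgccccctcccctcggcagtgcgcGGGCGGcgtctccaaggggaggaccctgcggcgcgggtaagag
The windows differed in content. Col1a2 held 2 CCAAT and 2 GGGCGG matches, Col5a1 held 2 GGGCGG matches, and Pcolce held 1 GGGCGG match. Col3a1 held 1 TATAAA match in a window of 37.7% G and C, against 75.0% in Col5a1, and Col6a1 held 1 TGANTCA match. Col4a1 and Col4a2 lie head to head on opposite strands with annotated starts 21 bases apart, each transcribed across the start of the other. Their windows share 78 bases. Col4a1 held 1 CCAAT and 1 GGGCGG match, and Col4a2 held 1 CCAAT and 3 GGGCGG matches. The GGGCGG match of Col4a1 is the same site as the last of those in Col4a2. Among the 41 windows of member genes, CCAAT was in 39% and GGGCGG in 68.3%, against 37.4% and 35.7% of the 32851 windows in the table. TATAAA was in 19.5% of the member windows and TGANTCA in 2.44%, against 13.6% and 7.81% of all windows. A match describes letters only, and no factor binding was measured.

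Values are log2 of the authors' normalized intensities. A probe counted as above background where its log2 intensity passed 6.70, an intensity of 104, set from the spread of dim probes below the most frequent value. The 4 arrays were close in their share of probes above background, from 50.7% to 51.0%. Of the 52 genes, 42 were above background on 1 or more arrays and were tested. By array, 33 member genes were above background in T23 and 19 in T1525, against 34 on each normal array. All 15 enzyme genes were above background in T23 and 8 in T1525, against 13 on each normal array. The plots of chains and of enzymes show every one of these values.

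Markers of the cells that make collagen differed between the samples. Summed intensities of markers, here and below, add every tested marker as measured. Markers at or below background therefore add to the sums, and low sums are largely background. Of 8 fibroblast markers, 6 were above background in T23 and 3 in T1525, against 8 on each normal array, and their summed intensity was 21697 in T23 and 867 in T1525, against 24803 and 47677 in normal prostate. Of 7 smooth muscle markers, 4 were above background in T23 and 1 in T1525, against 7 on each normal array, with summed intensities of 29437 in T23 and 1009 in T1525, against 136406 and 131010 in normal prostate. Acta2, the brightest in T23, had 14.72 there, against 15.74 and 15.61, whereas Myh11 had 5.91, against 14.48 and 14.44. All 7 were called lower in each line, with a median difference of −3.76 in T23 and −6.02 in T1525. Those fits called 14.9% of all genes lower in T23 and 14.8% in T1525. Of 4 luminal epithelial markers, 1 was above background in T23 and 4 in T1525, against 3 on each normal array, so T23 lacked most of the epithelial markers looked for in a prostate tumor line. Keratin 8 (Krt8) had log2 intensities of 5.98 in T23 and 14.12 in T1525, against 13.55 and 14.06 in normal prostate, and E-cadherin (Cdh1) had 6.37 in T23 and 10.96 in T1525, against 10.67 and 10.74. The fibroblast list did not move one way in T23: Pdgfra was called higher there and Thy1 and Lum lower, with a median difference of −1.53 over the 8 genes, while in T1525 5 were called lower and none higher, with a median of −3.02. In these bulk RNA samples, fewer cells of a type and less RNA per cell cannot be told apart, and the part of cell type content in the collagen differences was not tested.

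**Figure D1:**
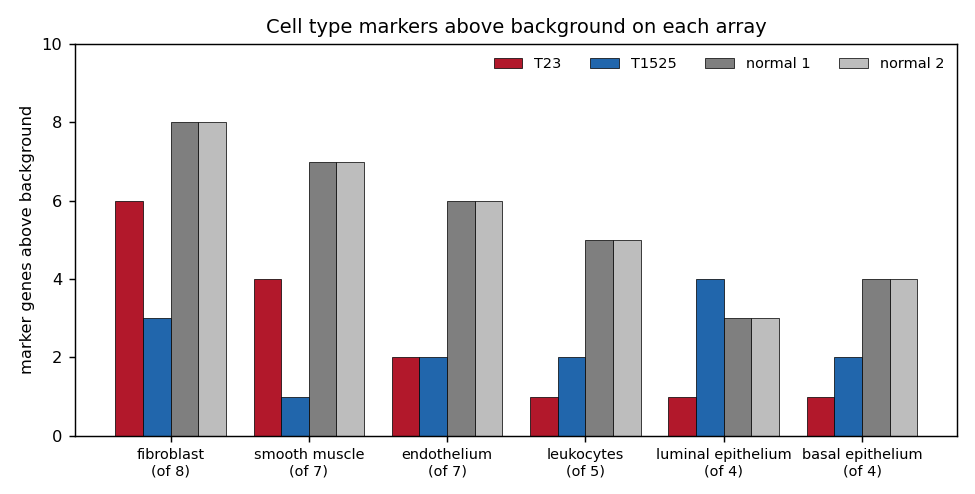
Number of marker genes of 6 cell types above background (vertical axis, genes) in T23, T1525 and the 2 normal arrays, with the number of tested markers under each name. T23 had 1 of 4 luminal markers and 6 of 8 fibroblast markers above background, and T1525 had 4 of 4 and 3 of 8.

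The normal arrays also differed from each other in these genes. Normal 2 was higher than normal 1 in 28 of the 42 tested member genes, with a median difference of 0.31 on the log2 scale, against −0.07 over all 10894 genes tested. The median difference was 1.65 over the 6 fibrillar chains. The fibroblast markers moved the same way, higher in normal 2 for 8 of 8 genes with a median difference of 1.17. So did markers of leukocytes (4 of 5, median 2.10), basal epithelium (4 of 4, 1.27), endothelium (7 of 7, 0.95) and adipose (2 of 2, 0.91). Skeletal muscle markers moved less (4 of 4, 0.23). Smooth muscle (2 of 7, −0.04) and luminal epithelium (2 of 4, −0.01) did not move this way. The part of cell type content in the difference between the normal arrays was not tested. The fits of each line alone below carry this spread as their error. The fit of both lines together also carries the spread between T23 and T1525.

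With both lines as 1 group against normal prostate, 4 collagen genes fell and none rose: Col15a1, Col17a1, Col7a1 and Col18a1. The type IV chains of the basement membrane were not called in that comparison. The fit in limma, with p-values adjusted by the Benjamini-Hochberg method over all probes above background and a threshold of 0.05, called 5.31% of all genes higher and 6.09% lower. Among the 42 member genes, 2 were higher and 7 lower at an unadjusted p under 0.05, where 16.7% of all genes were higher and 15.4% lower at that p. The median difference of the lines from normal prostate was −0.19 over the member genes and 0.11 over all genes tested. Leaving out either normal array left 0 calls in limma over all genes tested, members included, with 1802 genes at an unadjusted p under 0.05 without normal 1 and 1707 without normal 2.

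Each line was also set alone against the normal pair. In T23, 11 member genes rose and 6 fell, where the same fit called 15.6% of all genes higher and 14.9% lower. The rises include Loxl3 and Loxl4, which passed the background filter through T23 alone. With arrays scaled to one median the T23 calls were 5 higher and 4 lower, where 10.7% of all genes were called higher and 18.1% lower. In T1525, 1 member gene rose and 17 fell, where 16.5% of all genes were called higher and 14.8% lower. The median of the member genes' differences was 0.86 in T23 and −0.82 in T1525, against 0.08 and 0.09 over all genes. These fits assume that a line measured once varies like the normal pair, and both use the same 2 normal arrays. T23 and T1525 were compared directly by the size of the difference, without a test, since neither line was replicated: 20 member genes were past 2-fold higher in T23 and 0 lower, where 9.92% of all genes were past 2-fold higher and 10.3% lower.

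**Figure D2:**
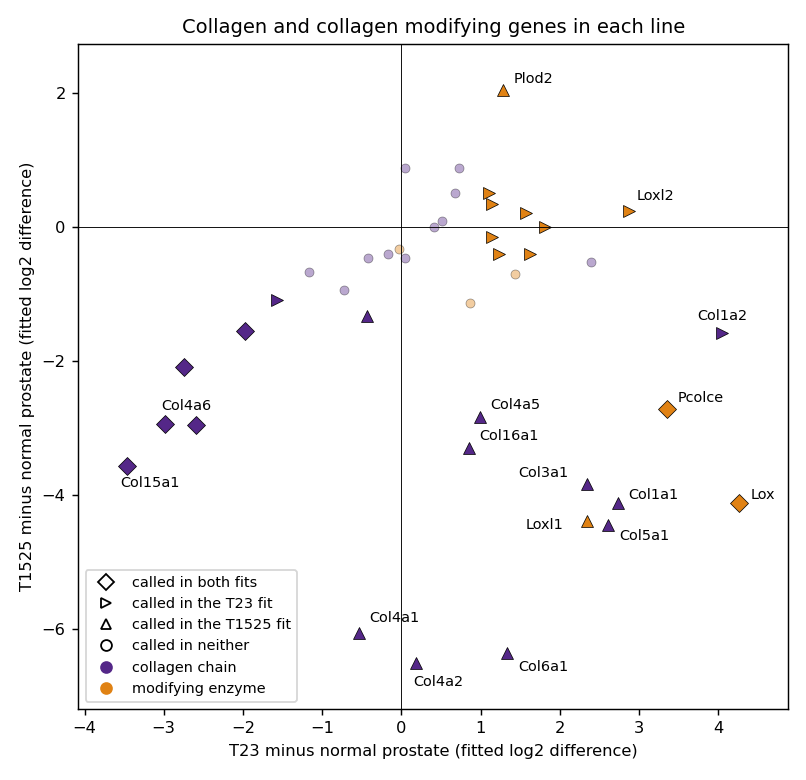
Fitted log2 difference from normal prostate in T23 (horizontal) and T1525 (vertical) for the 42 tested member genes, with shapes for the fits in which a gene passed the adjusted p of 0.05 and colors for chains and enzymes. Lox and Pcolce lie at the lower right, called higher in T23 and lower in T1525, and Col15a1 at the lower left, called lower in both. Both axes share the normal arrays.

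Of the 6 tested fibrillar chains, Col1a1, Col1a2, Col3a1 and Col5a1 lay above both normal arrays in T23 and at or below background in T1525, while Col5a3 and Col27a1 were near background throughout. Col1a1, the α1 chain of type I collagen, had log2 intensities of 12.77 in T23 and 5.92 in T1525, against 9.08 and 10.99 in normal prostate. Its partner chain Col1a2 had 11.88 in T23 and 6.25 in T1525, against 7.11 and 8.56. For both, T23 lay above both normal arrays and T1525 below both. Col1a2 rose 16.6-fold in T23 (log2 difference 4.05 ± 0.67 SE, adjusted p = 0.024), by 27.4-fold over normal 1 alone and 10-fold over normal 2 alone. Col1a1 was 6.63-fold higher in T23 and did not pass (adjusted p = 0.0853). In T1525, Col1a1 fell at least 10.1-fold (−4.11 ± 0.86, adjusted p = 0.0366), at least 5.24-fold below normal 1 and 19.6-fold below normal 2, whereas Col1a2, nearer to background in normal prostate, had a difference of −1.58 (adjusted p = 0.149).

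Col3a1, the chain of type III collagen that accompanies type I in distensible tissues, had 11.80 in T23 and 5.63 in T1525, against 8.53 and 10.39 in normal prostate. Col5a1, a type V chain that helps to start type I fibrils, had 13.21 in T23 and 6.15 in T1525, against 9.63 and 11.58. Both thus had the order of Col1a1, with T1525 under the background threshold. In T1525 Col3a1 fell at least 6.79-fold (adjusted p = 0.0403), at least 3.57-fold below normal 1 and 12.9-fold below normal 2. Col5a1 fell at least 15.0-fold there (adjusted p = 0.0326), at least 7.65-fold below normal 1 and 29.5-fold below normal 2. In T23 the differences of 2.34 for Col3a1 and 2.61 for Col5a1 did not pass (adjusted p = 0.109 and 0.0972). A second Col3a1 probe disagreed on both calls: it passed in T23 (2.99, adjusted p = 0.0256) and did not in T1525 (−1.30, adjusted p = 0.129). The T1525 calls of Col1a1 and Col3a1 were lost when arrays were scaled to one median (adjusted p = 0.0524 and 0.0566) or by cyclic loess (adjusted p = 0.0546 and 0.058). The other tested fibrillar chains, Col5a3 and Col27a1, ranged from 6.22 to 7.41 over the 4 arrays and were not called.

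**Figure D3:**
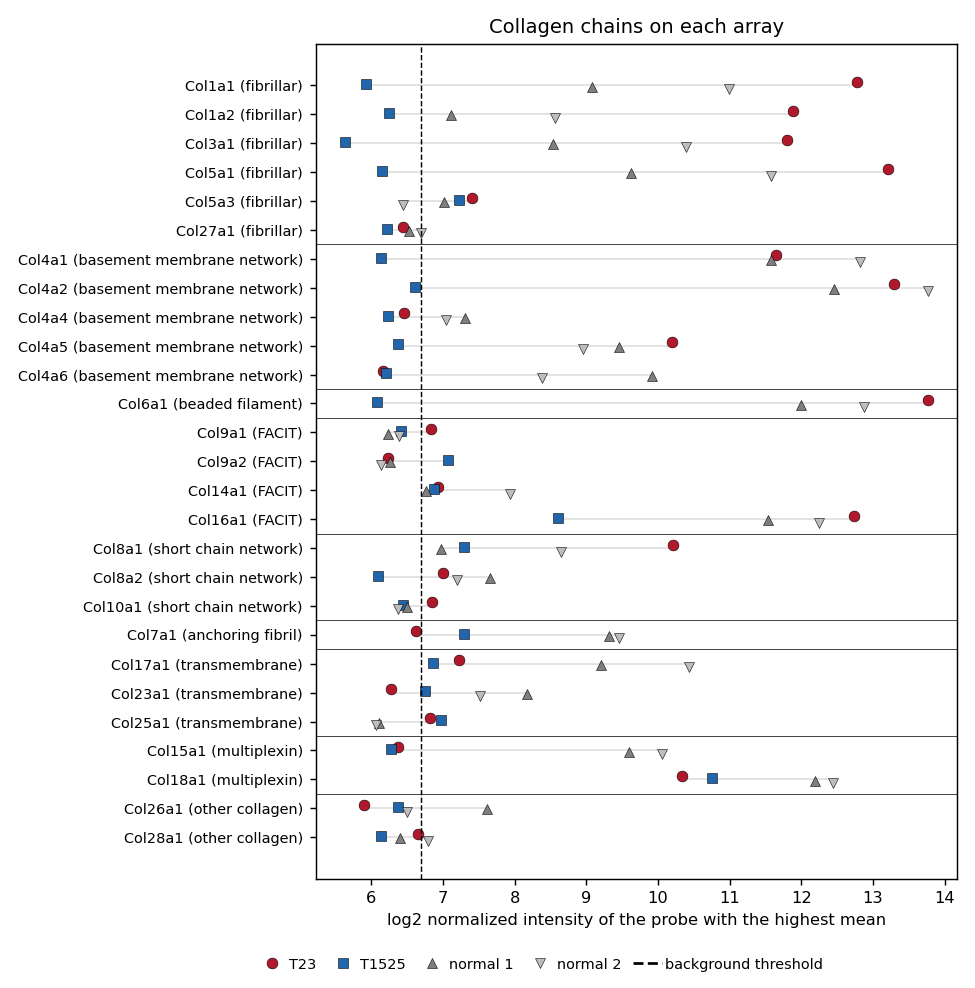
Log2 normalized intensity (horizontal) of the 27 collagen chains above background on 1 or more arrays, by family, with 1 point for each of T23, T1525, normal 1 and normal 2 and a dashed line at the background threshold of 6.70. T23 lies to the right of both normal arrays for Col1a1, Col1a2, Col3a1 and Col5a1, and T1525 lies left of the dashed line. Levels of different rows come from different probes and are not comparable.

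Type IV chains of the basement membrane were at or below background in T1525 for all 5 tested genes. Col4a1 had 11.65 in T23 and 6.14 in T1525, against 11.57 and 12.82 in normal prostate. Its head-to-head neighbor Col4a2 had 13.29 in T23 and 6.61 in T1525, against 12.45 and 13.77. T23 lay between the normal arrays for both genes, and T1525 far below them. In T1525 Col4a1 fell at least 45.2-fold (−6.05 ± 0.59, adjusted p = 0.00979), at least 29.2-fold below normal 1 and 69.7-fold below normal 2. Col4a2 fell at least 85.2-fold there (−6.50 ± 0.61, adjusted p = 0.00939), at least 53.9-fold below normal 1 and 135-fold below normal 2. The T23 differences were −0.54 for Col4a1 (adjusted p = 0.505) and 0.19 for Col4a2 (adjusted p = 0.828).

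The other head-to-head pair of type IV genes, whose starts lie 1343 bases apart, split in T23. Col4a5 had 10.20 in T23 and 6.38 in T1525, against 9.46 and 8.96 in normal prostate. Col4a6, its neighbor and a chain of epithelial and smooth muscle basement membranes, had 6.17 in T23 and 6.21 in T1525, against 9.91 and 8.38. Col4a5 was thus above both normal arrays in T23 while Col4a6 was at background in both lines. Col4a5 fell at least 5.73-fold in T1525 (adjusted p = 0.0113), and its T23 difference of 0.99 did not pass (adjusted p = 0.0848). Col4a6 fell at least 5.46-fold in each line (adjusted p = 0.0472 in T23 and 0.0477 in T1525), at least 9.26-fold below normal 1 and 3.22-fold below normal 2, and both calls were lost under either scaling. Each Col4a6 call held in only 3 of 8 alternative settings. The remaining chain, Col4a4, had 6.45 in T23 and 6.23 in T1525, against 7.31 and 7.04, and was not called.

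Col6a1, a chain of the beaded filaments that tie cells to fibers, had 13.77 in T23 and 6.08 in T1525, against 11.99 and 12.87 in normal prostate. Its other 2 tested probes gave 13.61 and 8.92 in T23 and 6.24 and 6.07 in T1525, against 11.21 and 6.53 in normal 1 and 12.13 and 6.57 in normal 2. The first pair of probes put T23 above both normal arrays and T1525 below both, and the third was above background in T23 alone. Col6a1 fell at least 53.1-fold in T1525 (−6.35 ± 0.44, adjusted p = 0.00607). In T23 the probe with the highest mean missed the threshold (1.34, adjusted p = 0.0939), whereas the other probes passed (1.94, adjusted p = 0.0475, and 2.38, adjusted p = 0.0096). The last of these entered the test only because T23 was high.

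Among chains that attach to fibrils or form hexagonal networks, 2 fell in T1525. Col16a1, which is found in association with fibrils, had 12.74 in T23 and 8.60 in T1525, against 11.53 and 12.24 in normal prostate, and fell 9.76-fold in T1525 (adjusted p = 0.0122). Col8a2, a short chain known from the networks of the cornea, had 7.0 in T23 and 6.10 in T1525, against 7.65 and 7.19, and fell at least 1.66-fold in T1525 (adjusted p = 0.0423). Col8a1, the other type VIII chain, had 10.21 in T23 and 7.29 in T1525, against 6.98 and 8.64. T23 was the highest of the 4 arrays for Col8a1 and Col16a1, and neither T23 difference passed (2.39, adjusted p = 0.0856, and 0.85, adjusted p = 0.164). Col9a1, Col9a2, Col10a1 and Col14a1 ranged from 6.13 to 7.93 and were not called by their brightest probes. A second Col9a1 probe had 6.13 in T23 and 7.14 in T1525, against 6.17 and 6.06, and was called at least 1.36-fold higher in T1525 (adjusted p = 0.0404). That probe was above background in T1525 alone and entered the test only through that array.

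The 4 chains that fell in both lines together are described next. Col15a1, a collagen of basement membrane zones, had 6.37 in T23 and 6.27 in T1525, against 9.60 and 10.06 in normal prostate, which is 6.32 ± 0.07 in the lines and 9.83 ± 0.33 in normal prostate (SD, n = 2 each). It fell at least 8.79-fold in the lines together (−3.51 ± 0.27 SE, adjusted p = 0.0143). Col17a1, the transmembrane collagen of hemidesmosomes in basal epithelial cells, had 7.23 in T23 and 6.86 in T1525, against 9.21 and 10.43, and fell 6.86-fold in the lines together (−2.78 ± 0.50, adjusted p = 0.0476). Both lines lay below both normal arrays for both genes. The Col17a1 fall was 4.49-fold against normal 1 alone and 10.5-fold against normal 2 alone, and its second tested probe, at 6.80 in T23 and 6.11 in T1525, against 7.70 and 9.32, was not called in any fit.

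Col7a1, which forms the anchoring fibrils under stratified epithelium, had 6.63 in T23 and 7.30 in T1525, against 9.31 and 9.46 in normal prostate. It fell at least 5.24-fold in the lines together (−2.42 ± 0.32, adjusted p = 0.0304), and of the lines only T1525 gave a level above background. Col18a1, the source of the fragment endostatin, had 10.34 in T23 and 10.75 in T1525, against 12.19 and 12.44, and fell 3.40-fold (−1.77 ± 0.27, adjusted p = 0.0381). Unlike the other 3 genes, Col18a1 stayed well above background in both lines. All 4 also fell in each line alone, with adjusted p from 0.00806 to 0.0425 in T23 and from 0.00789 to 0.0319 in T1525, although Col17a1 lost its T23 call under either scaling. Of 4 basal epithelial markers, 1 was above background in T23 and 2 in T1525, against 4 on each normal array, with summed intensities of 484 in T23 and 13914 in T1525, against 10454 and 22418. The basal sum was thus below both normal arrays in T23 and between them in T1525, where Krt14 had 13.72, against 11.86 and 13.08. Even so, 3 of the 4 basal markers were called lower in T1525, with a median difference of −3.97. In T23 all 4 were called lower, with a median of −5.29. Those fits called 14.8% of all genes lower in T1525 and 14.9% in T23. Of 7 endothelial markers, 2 were above background in each line, against 6 on each normal array, with summed intensities of 701 in T23 and 740 in T1525, against 5992 and 14596. Other lists were lower in both lines too. Leukocyte markers summed to 368 in T23 and 581 in T1525, against 18402 and 43641. Skeletal muscle markers summed to 304 and 403, against 37350 and 42375, and adipose markers to 171 and 155, against 3234 and 8674. The part of any of these lists in the falls was not tested.

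Col23a1, another transmembrane collagen, had 6.28 in T23 and 6.75 in T1525, against 8.17 and 7.52 in normal prostate, and fell at least 2.22-fold in T23 (adjusted p = 0.0449) with a T1525 difference of −1.09 that did not pass (adjusted p = 0.0924). The remaining tested chains, Col25a1, Col26a1 and Col28a1, ranged from 5.90 to 7.61 and were not called. Another 10 chains were at or below background on every array, with log2 values from 5.73 to 6.67, and were not tested: Col2a1, Col5a2, Col11a1, Col11a2, Col4a3, Col6a4, Col6a6, Col9a3, Col13a1 and Col19a1. They include the cartilage chains of types II and XI. For these the arrays give only an upper limit on signal, not an absence.

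The lysyl oxidases, which start the cross-linking of collagen and elastin, were above background in T23 for all 5 genes and in T1525 for 1, against 3 on each normal array. Lox had 14.80 in T23 and 6.42 in T1525, against 9.64 and 11.43 in normal prostate. Loxl1, a relative that acts in elastic fibers, had 13.25 in T23 and 6.50 in T1525, against 10.02 and 11.77. T23 was above both normal arrays and T1525 under background for both genes. Lox rose 19.2-fold in T23 (4.27 ± 0.81, adjusted p = 0.031), by 35.8-fold over normal 1 and 10.4-fold over normal 2, a call lost when arrays were scaled to one median (adjusted p = 0.0541) or by cyclic loess (adjusted p = 0.0535). In T1525 Lox fell at least 14.3-fold (−4.11 ± 0.81, adjusted p = 0.0326), at least 7.71-fold below normal 1 and 26.6-fold below normal 2. Loxl1 fell at least 18.4-fold in T1525 (adjusted p = 0.0276), at least 10.1-fold below normal 1 and 33.6-fold below normal 2, and its T23 difference of 2.35 did not pass (adjusted p = 0.0972).

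Loxl2, Loxl3 and Loxl4, oxidases with scavenger receptor domains, were dim in normal prostate. Loxl2 had 9.94 in T23 and 7.31 in T1525, against 6.93 and 7.20, Loxl3 had 7.45 in T23 and 6.15 in T1525, against 6.28 and 6.33, and Loxl4 had 7.74 in T23 and 6.37 in T1525, against 6.12 and 6.22. T23 stood above the other 3 arrays for each of them. In T23 Loxl2 rose 7.37-fold (2.88 ± 0.25, adjusted p = 0.00855), Loxl3 at least 1.68-fold (adjusted p = 0.0324) and Loxl4 at least 2.06-fold (adjusted p = 0.0187). None of the 3 was called in T1525, where the Loxl2 difference was 0.24 (adjusted p = 0.487). Loxl3 and Loxl4 were above background in T23 alone. They entered the test only because T23 was high. A filter of 2 arrays left both untested, while both calls held with no filter.

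**Figure D4:**
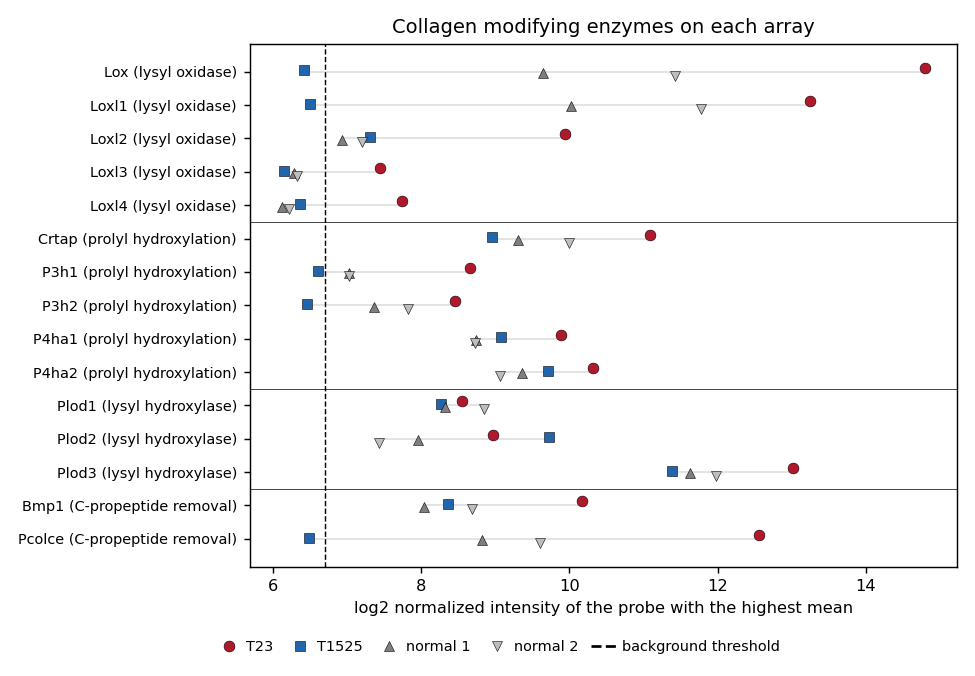
Log2 normalized intensity (horizontal) of the 15 enzyme and enzyme partner genes, with 1 point for each of T23, T1525, normal 1 and normal 2 and a dashed line at the background threshold. Crtap stands with the prolyl hydroxylases it partners and Pcolce with Bmp1, whose cut it enhances. T23 is rightmost for every gene except Plod1, where normal 2 is, and Plod2, where T1525 is.

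Of the 5 tested member genes of prolyl hydroxylation in the endoplasmic reticulum, P4ha1, P4ha2 and P3h1 rose in T23, and Crtap and P3h2 did not pass. P4ha1, a catalytic subunit of prolyl 4-hydroxylase, had 9.89 in T23 and 9.08 in T1525, against 8.74 and 8.73 in normal prostate. P4ha2, the alternative subunit, had 10.32 in T23 and 9.71 in T1525, against 9.36 and 9.06. Both lines were above both normal arrays for both subunits. P4ha1 rose 2.21-fold (adjusted p = 0.0319) and P4ha2 2.16-fold (adjusted p = 0.0452) in T23, while the T1525 differences of 0.34 and 0.50 did not pass (adjusted p = 0.299 and 0.209). Both T23 calls were lost under either scaling.

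P3h1, the prolyl 3-hydroxylase that works in a complex with Crtap, had 8.66 in T23 and 6.61 in T1525, against 7.02 and 7.02 in normal prostate, and rose 3.11-fold in T23 (adjusted p = 0.017). Crtap had 11.09 in T23 and 8.95 in T1525, against 9.31 and 10. Like P3h1 it was highest in T23 and lowest in T1525, and it was called in neither line (T23 difference 1.44, adjusted p = 0.0574). P3h2, a prolyl 3-hydroxylase of basement membrane collagen, ranged from 6.46 in T1525 to 8.46 in T23 and was not called (adjusted p = 0.1 in T23 and 0.0577 in T1525).

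Plod2 was the 1 member gene that rose in T1525. It encodes the lysyl hydroxylase of telopeptides, whose product forms the stable hydroxyallysine cross-links, and had 8.97 in T23 and 9.73 in T1525, against 7.95 and 7.43 in normal prostate. Both lines lay above both normal arrays. Plod2 rose 4.11-fold in T1525 (2.04 ± 0.32, adjusted p = 0.0206), and its 2.43-fold difference in T23 did not pass (adjusted p = 0.0524). Plod3, a lysyl hydroxylase that also transfers glucose, had 13.02 in T23 and 11.38 in T1525, against 11.62 and 11.97, and rose 2.34-fold in T23 (adjusted p = 0.041), a call lost under either scaling. Plod1, which hydroxylates lysines of the helix, ranged from 8.26 to 8.85 and was not called.

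The C-propeptide enhancer Pcolce had 12.56 in T23 and 6.49 in T1525, against 8.82 and 9.60 in normal prostate. Bmp1, the protease it assists, had 10.17 in T23 and 8.36 in T1525, against 8.04 and 8.68. For Pcolce T23 lay above and T1525 below both normal arrays, whereas for Bmp1 T1525 lay between them. Pcolce rose 10.2-fold in T23 (3.35 ± 0.41, adjusted p = 0.0143) and fell at least 5.72-fold in T1525 (−2.72 ± 0.41, adjusted p = 0.0192). Bmp1 rose 3.51-fold in T23 (adjusted p = 0.0335), a call lost under either scaling and not shared by its other tested probes.

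Between the lines, 10 of the 27 tested chains and 10 of the 15 tested enzyme genes were past 2-fold, all higher in T23. Of all genes, 9.92% were past 2-fold higher in T23. The median log2 difference between the lines was 0.16 over the chains and 1.77 over the enzyme genes. Lox was at least 276-fold higher in T23 than in T1525, Col6a1 at least 134-fold, Col4a2 at least 96.9-fold, Loxl1 at least 94.0-fold and Col5a1 at least 91.4-fold. Col1a1 was at least 67.2-fold higher in T23, Pcolce at least 58.2-fold, Col1a2 at least 36.4-fold, Col3a1 at least 34.5-fold and Col4a1 at least 31.0-fold. These 10 were all at or below background in T1525, so each value is a lower bound and the genes cannot be ranked by it. Of the genes above background in both lines, Col16a1 was 17.6-fold, Col8a1 7.57-fold, Loxl2 6.22-fold, Crtap 4.41-fold, Bmp1 3.51-fold and Plod3 3.12-fold higher in T23. The others past 2-fold were Col4a5 at least 11.4-fold, P3h1 at least 3.90-fold, P3h2 at least 3.40-fold and Loxl4 at least 2.06-fold. Within 2-fold were 22 genes, among them Plod2, 1.69-fold lower in T23, and the chains that fell in both lines, Col7a1, Col15a1, Col17a1 and Col18a1. With 1 array a line, these values have no replicate check.

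**Figure D5:**
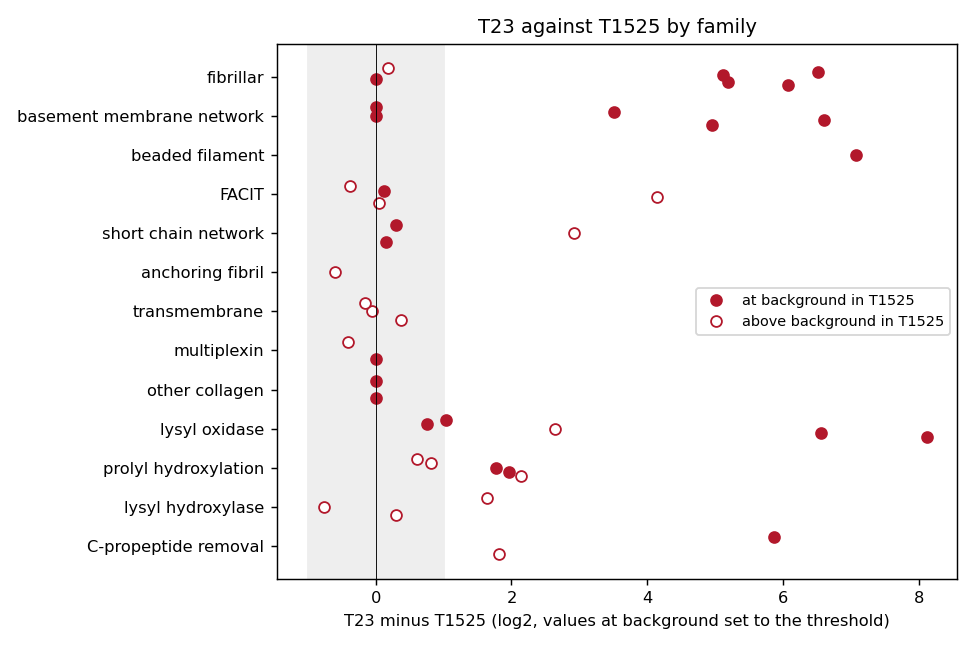
T23 minus T1525 in log2 (horizontal, with the threshold put in place of any value that did not pass it) for the 42 tested member genes by family, filled where T1525 was at or below background. The grey band marks differences within 2-fold, and every point outside it lies on the right. A filled point shows a lower bound, so filled points have no order among themselves. Crtap is drawn with the prolyl hydroxylases and Pcolce with Bmp1.

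Genes that serve collagens outside the family were read from 5 lists, holding 52 tested genes. In the fit of both lines together, 1 rose and 2 fell, and 12 had an unadjusted p under 0.05. The same fit called 5.31% of all genes higher and 6.09% lower. In T23, 9 rose and 5 fell, where 15.6% of all genes rose and 14.9% fell, and in T1525, 2 rose and 16 fell, where 16.5% of all genes rose and 14.8% fell. Their median difference from normal was −0.33 for both lines together, 0.30 for T23 and −0.88 for T1525, against 0.11, 0.08 and 0.09 over all genes. The 12 genes of procollagen processing and fibril assembly held the most calls, with 3 higher and 3 lower in T23 and 0 higher and 7 lower in T1525. Past 2-fold between the lines, T23 was higher for 4 of 14 folding and secretion genes, 7 of 12 processing and fibril assembly genes, 2 of 6 receptors, 6 of 10 breakdown genes and 4 of 10 inducers, and lower for 1 receptor, where 9.92% of all genes were past 2-fold higher in T23 and 10.3% lower.

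The gene that rose in both lines together was Sec23a, a coat protein of the vesicles that carry procollagen out of the endoplasmic reticulum. It had 9.07 in T23 and 9.09 in T1525, against 7.66 and 7.22 in normal prostate, a 3.12-fold difference (1.64 ± 0.26, adjusted p = 0.0404) that missed the threshold when the variance prior followed intensity (adjusted p = 0.0506). Those that fell were Lum, a small proteoglycan that spaces fibrils, and Tnxb, a fibril-bridging tenascin. Lum had 5.89 in T23 and 5.84 in T1525, against 8.54 and 10.08 (at least 6.13-fold lower, adjusted p = 0.0436), and Tnxb had 6.73 in T23 and 6.12 in T1525, against 9.55 and 11.17 (at least 12.6-fold lower, adjusted p = 0.041). Against normal 1 alone the falls were at least 3.59-fold for Lum and 7.18-fold for Tnxb, and against normal 2 alone at least 10.5-fold and 22.0-fold. Lum is also 1 of the fibroblast markers.

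The next genes differed widely between the lines, not all in 1 direction. Serpinh1, the collagen chaperone Hsp47, was chosen after its values were seen: it had 14.51 in T23 and 6.24 in T1525, against 12.21 and 13.04 in normal prostate, rising 3.69-fold in T23 (adjusted p = 0.0434, lost under either scaling) and falling at least 61.1-fold in T1525 (adjusted p = 0.00581). Itga11, a collagen-binding integrin subunit, had 12.13 in T23 and 5.93 in T1525, against 6.96 and 7.74, and rose 27.4-fold in T23 (adjusted p = 0.0083). Cd44, a hyaluronan receptor that also binds collagen, had 7.01 in T23 and 11.10 in T1525, against 6.51 and 7.62, and rose at least 15.4-fold in T1525 (adjusted p = 0.0154). Itga11 was thus highest in T23 and Cd44 in T1525.

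Among breakdown genes, the gelatinase Mmp2 had 12.32 in T23 and 5.90 in T1525, against 11.56 and 12.52 in normal prostate, and fell at least 40.6-fold in T1525 (adjusted p = 0.00681). Mmp14, a membrane collagenase, had 13.84 in T23 and 13.18 in T1525, against 10.38 and 11.56, and rose 7.29-fold in T23 (adjusted p = 0.033), by 11-fold over normal 1 alone and 4.84-fold over normal 2 alone, with a 4.62-fold difference in T1525 that did not pass (adjusted p = 0.0543). The T23 calls of Mmp14 and Ccn2 were lost under either scaling (adjusted p = 0.0607 and 0.0723 with median scaling). Both lines lay above both normal arrays for Mmp14, while T1525 alone was at background for Mmp2. Among inducers, Ccn2, a target and partner of TGF-β signaling, had 13.52 in T23 and 9.80 in T1525, against 9.91 and 11.27, and rose 7.61-fold in T23 (adjusted p = 0.0402), by 12.2-fold over normal 1 alone and 4.74-fold over normal 2 alone. Sox9, a regulator of cartilage collagen genes, had 12.56 in T23 and 9.37 in T1525, against 12.73 and 12.70, and fell 10.2-fold in T1525 (adjusted p = 0.0058).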

How the data were processed

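RNA of T23, T1525 and 2 normal prostate samples had been labelled with biotin and hybridised to Illumina bead arrays, per the labels' protocols. The values used were the normalized linear intensities deposited by the authors. The submitters' processing notes name BeadStudio, and the normalization method is not given in the sources used here. Sorted intensities of the 4 arrays differed by a median of 0.183%, so the arrays share nearly 1 distribution of values. A further 8 per-sample columns of an unnormalized table, named by slide position, were not used. The number of arrays limits the precision.

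Log2 intensities were fitted with limma 3.58.1 in R 4.3.3 (lmFit, eBayes), with Benjamini-Hochberg adjustment over the 15748 probes above background (log2 over 6.70, the mode of 6.12 plus a one-sided 0.01 tail) on 1 or more arrays. The fits were both lines against normal prostate, and each line against normal prostate in a 3-group fit. T23 against T1525 was not tested; values at or below background were set to the threshold. A gene was represented by its tested probe with the highest mean. A fold against a group at background is a lower bound. The fit of both lines together was also run on simulated data, with less noise than the fitted spread and the same shift in both lines. The fits of each line alone were not scored there.

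Of the probes, 20984 had 1 gene symbol in GEO's platform annotation, 1 had several and 3628 none. Lepre1 and Leprel1 appear as P3h1 and P3h2, found through RefSeq's older symbols. Another 8 RefSeq symbols of the rule had no probe in the values used and were not analysed here.

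Values on every array were given for members called in any fit or differing by 2 or more on the log2 scale between the lines. Of each pathway list, up to 4 called genes by size of the class difference were named, otherwise up to 2 by size. The members and lists were chosen with earlier results of these data known. Alternatives changed the background filter, its tail, the scaling, the variance prior, the probe rule and the arrays included.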

Additional observations from a re-analysis of the deposited data

Results flagged for a closer look

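For 14 member genes T23 lay above both normal arrays and T1525 below both. The share of all genes with this order was not computed. Of these genes, only Lox and Pcolce were called in opposite directions in the fits of each line alone. The T1525 differences of Plod3, P3h1 and Crtap were small, at −0.41, −0.41 and −0.70, and did not pass. The difference between the lines was not tested, since each has 1 array. In T23 minus T1525 on the log2 scale, with the threshold put in place of any value that did not pass it, the cross-linking and maturation genes were Lox at 8.11, Loxl1 at 6.55, Pcolce at 5.86, Crtap at 2.14, P3h1 at 1.96, P3h2 at 1.77 and Plod3 at 1.64. The chains were Col6a1 at 7.07, Col5a1 at 6.51, Col1a1 at 6.07, Col1a2 at 5.19, Col3a1 at 5.11, Col16a1 at 4.14 and Col4a5 at 3.51. The summed intensity of the fibroblast markers was 21697 in T23 and 867 in T1525, against 24803 and 47677 in normal prostate, below both normal arrays in each line, and its part in these differences was not tested.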

How the results depend on the processing

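No paired analysis was possible, because the labels give no pairing between the lines and the normal samples. For both lines together, the count of 4 member genes became 3 with no filter and 5 with median scaling. The pathway count of 3 (1 higher, 2 lower) became 5 with median scaling. It became 2 (1 higher, 1 lower) both with no filter and with probe means, so that a fall was lost in each. It stayed 3 with an intensity trend, where Sec23a was lost (0 higher, 3 lower). Leaving out a line turns this fit into that of the other line alone, reported above, and is no separate check. Leaving out either normal array left no calls, as given above. The T23 count of 17 (11 higher, 6 lower) became 9 with median scaling (5 higher, 4 lower) and 10 with cyclic loess (6 higher, 4 lower): Bmp1, Col17a1, Col4a6, Lox, P4ha1, P4ha2 and Plod3 were lost under both, and Loxl3 with median scaling. Col17a1 in both lines together missed the threshold with no filter (adjusted p = 0.0565), cyclic loess (0.0504), an intensity trend (0.05) and probe means (0.0801). The T1525 count of 18 lay between 15 and 21, and T23 against T1525 between 19 and 21 past 2-fold, or 15 past 4-fold. No value of a called gene reversed. Scaling moved the median difference of all genes from 0.11 to −0.13 (median) or −0.07 (cyclic loess), and the share of calls that were higher from 46.6% to 31.8% or 33.4%; in T23 it moved from 51.1% to 37.3% or 40.0%, and in T1525 from 52.7% to 39.3% or 41.3%. The cause was not tested. Single-line fits without a normal array had no residual degrees of freedom and gave no test. Probes near background limit low genes.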
